A study of Arabidopsis thaliana with 27 samples.

Results

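The 9 genes described here make up the core of indole defence metabolism in Arabidopsis, as chosen by name from the pathway, with earlier results of these data known: CYP79B2 (AT4G39950), CYP79B3 (AT2G22330), CYP71A12 (AT2G30750), CYP71A13 (AT2G30770), PAD3 (AT3G26830), GGP1 (AT4G30530), CYP82C2 (AT4G31970), AT1G26380 and AT1G26410. All 9 of the 32627 loci on the array were found, each as 1 feature with 3 or 4 probe pairs. RNA was hybridized to 27 NimbleGen arrays with 1 dye, 9 groups of 3 arrays, and every value below is the log2 of a normalized intensity. The plants were Col-0 WT, gox2, a mutant of the photorespiratory glycolate oxidase GOX2, and 35S::GOX2, in which the constitutive 35S promoter drives that gene in all tissues. Each genotype was sampled in a Cd-free solution (control) and after 100 μM Cd for 30 min or 24 h. Each array stands for 1 independent pool of plants, named as seedlings in the protocols and as leaves in the tissue label. The gox2 control arrays are labelled atgox, without a gene number, and the study's methods give the short exposure as longer than the labels do.

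Camalexin is the main phytoalexin of Arabidopsis, an antimicrobial indole compound that accumulates after pathogen attack and after heavy metals. Its synthesis starts from tryptophan, which CYP79B2 and CYP79B3 convert to indole-3-acetaldoxime, the branch point shared with indole glucosinolates and an auxin route. CYP71A12 and CYP71A13 then form indole-3-acetonitrile, which is joined to glutathione. The peptidase GGP1 trims that conjugate, and PAD3 (CYP71B15) catalyses the last steps to camalexin. In a side branch, the FAD-linked oxidase AT1G26380 leads to indole carbonyl nitrile and CYP82C2 hydroxylates it to 4-hydroxy-indole-3-carbonyl nitrile (4-OH-ICN). AT1G26410 is a relative of AT1G26380 from the same berberine bridge-like family.

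Some arrays stood apart from their labels, and this touches every comparison below. GOX2 itself had group means between 9.68 and 10.30 in 35S::GOX2 control and in the groups labelled gox2 and WT at 30 min of Cd, and between 13.67 and 14.21 in the other 6 groups, which goes against the labels of the mutant and of the overexpressor. Relative to each feature's mean, 8 of the 27 arrays were most similar to an array with a different label: all 3 of gox2 control, all 3 of gox2 Cd 24 h, and replicate 2 of 35S::GOX2 at 30 min and at 24 h. Groups are therefore named below by what their arrays were labelled. The arrays lay on 3 slides with 12, 5 and 10 arrays, and only the pairs WT at 24 h against its control, 35S::GOX2 at 24 h against 30 min, and the controls of 35S::GOX2 and WT lay wholly on 1 slide. Replicate 3 of gox2 Cd 24 h shared a slide with gox2 control, and its other arrays shared one with WT Cd 30 min. Array medians ranged from 10.02 to 10.17 before normalization between arrays. The files give intensities without a detection call, and precision is limited by having 3 arrays per group.

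Most of the 9 genes varied more between arrays than a typical feature did, and GGP1 varied less. The SD of CYP71A12 over the 27 arrays was 1.37, at percentile 99.79 of all features, and those of CYP71A13 and CYP82C2 were at percentiles 99.3 and 99.1. AT1G26410, PAD3 and AT1G26380 followed at 97.8, 97.23 and 95.99, CYP79B2 and CYP79B3 at 81.51 and 69.58, and GGP1 at 25.64, with an SD of 0.16. Over the 27 arrays, which share labels and slides, CYP71A12 correlated with PAD3 at r = 0.98, with CYP71A13 at 0.97 and with AT1G26410 at 0.96. CYP79B2, CYP79B3 and CYP82C2 formed another set, with r of 0.74 for CYP79B2 with CYP79B3 and 0.88 for CYP79B2 with CYP82C2. GGP1 correlated with CYP79B2 at 0.81, with CYP82C2 at 0.74 and with CYP79B3 at 0.46. CYP79B3 ran opposite to CYP71A12 (r = -0.69). These coefficients are descriptions over arrays and carry no test.

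CYP71A12 had the widest range, from 9.83 to 13.56. On arrays labelled WT it read 9.83, 10.66 and 10.24 in control, 10.13, 10.28 and 10.22 after 30 min of Cd, and 13.17, 13.26 and 13.11 after 24 h. On arrays labelled gox2 it read 10.64, 10.39 and 10.20 in control, 12.86, 12.58 and 12.77 after 30 min, and 10.41, 13.44 and 10.32 after 24 h. On arrays labelled 35S::GOX2 it read 10.54, 10.35 and 10.30 in control, 10.46, 13.56 and 10.18 after 30 min, and 10.41, 13.56 and 10.52 after 24 h. The gene was thus at one of 2 levels: 9 arrays were at 12.58 or above, 18 were at 10.66 or below, and none lay between. The high arrays were all 3 of WT Cd 24 h, all 3 of gox2 Cd 30 min, and replicate 2 alone of gox2 Cd 24 h, 35S::GOX2 Cd 30 min and 35S::GOX2 Cd 24 h. None of the 9 control arrays was high.

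CYP71A13, the neighbour that supplies most of the nitrile for camalexin, split the arrays in the same way. Its WT arrays read 9.52, 10.25 and 10.15 in control, 10.35, 10.41 and 10.27 after 30 min, and 12.25, 12.26 and 12.31 after 24 h. Its gox2 arrays read 10.46, 9.69 and 9.59 in control, 12.18, 11.93 and 12.20 after 30 min, and 9.91, 12.23 and 9.55 after 24 h. Its 35S::GOX2 arrays read 10.50, 10.25 and 10.36 in control, 10.28, 12.16 and 9.49 after 30 min, and 10.20, 12.27 and 10.14 after 24 h. The 9 high arrays, named above, were at 11.93 or more and the other 18 at 10.50 or less. CYP71A12 and CYP71A13 are close relatives and neighbours, with 2 protein-coding genes between them in the RefSeq annotation of TAIR10.1, and the files do not give the probe sequences. How far each probe set also reads its neighbour was not tested.

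PAD3 showed the third such split, over a smaller range. In WT it read 11.59, 11.80 and 11.57 in control, 11.85, 11.93 and 11.88 after 30 min, and 13.31, 13.29 and 13.19 after 24 h. In gox2 it read 11.91, 11.52 and 11.41 in control, 13.09, 12.88 and 13.14 after 30 min, and 11.58, 13.47 and 11.55 after 24 h. In 35S::GOX2 it read 11.79, 11.96 and 11.89 in control, 11.65, 13.48 and 11.59 after 30 min, and 11.65, 13.48 and 11.74 after 24 h. The same 9 arrays were at 12.88 or above and the rest at 11.96 or below, so the gap between the sets was 0.92, against 1.92 for CYP71A12 and 1.43 for CYP71A13.

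**Figure D1:**
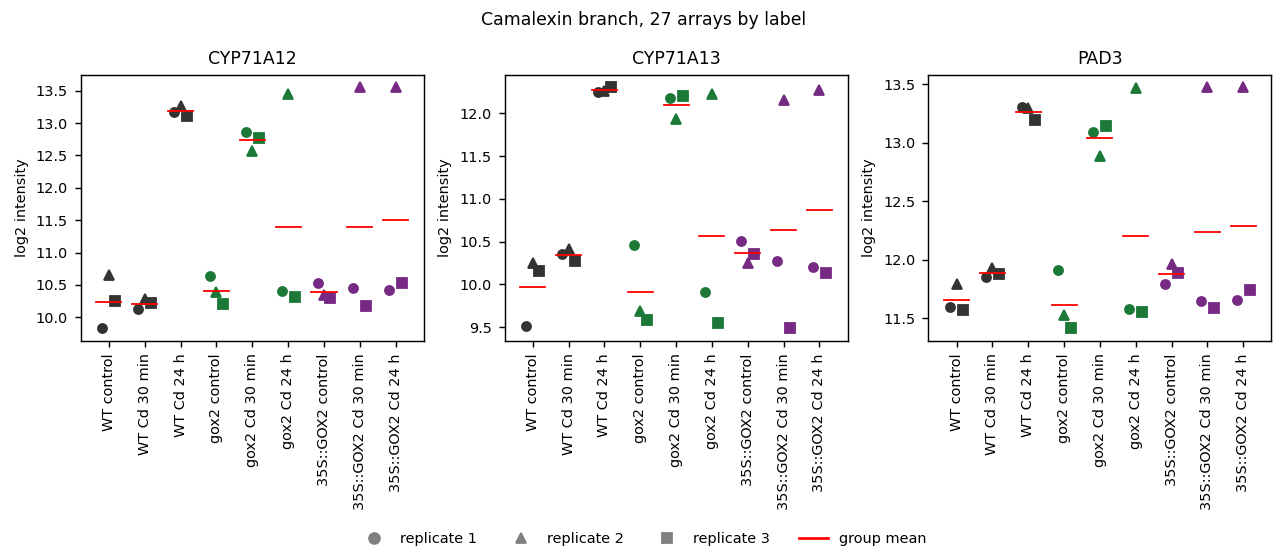
Log2 intensity of CYP71A12, CYP71A13 and PAD3 on the 27 arrays by labelled group, with symbols for the replicate number and a red line for the group mean. The arrays of WT Cd 24 h and gox2 Cd 30 min sit high together, while replicate 2 alone is high in gox2 Cd 24 h, 35S::GOX2 Cd 30 min and 35S::GOX2 Cd 24 h, where the mean lies in the empty gap.

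GGP1, the peptidase of the camalexin branch, did not follow these genes. It stayed between 14.07 and 14.68 on all arrays, with group means from 14.22 (35S::GOX2 Cd 24 h) to 14.59 (35S::GOX2 control). On the 9 arrays where PAD3 was high it lay between 14.15 and 14.48, inside the range of the others. Its r over the 27 arrays was -0.12 with PAD3 and 0.81 with CYP79B2.

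The entry enzymes CYP79B2 and CYP79B3 had their highest group mean in 35S::GOX2 control and their lowest in 35S::GOX2 Cd 24 h, as GGP1 did. CYP79B2 read 12.36, 12.37 and 12.42 in WT control, 12.53, 12.15 and 12.09 in WT Cd 30 min, and 12.10, 12.33 and 12.11 in WT Cd 24 h. It read 12.06, 12.22 and 12.45 in gox2 control, 11.85, 12.22 and 12.18 in gox2 Cd 30 min, and 12.33, 12.14 and 13.12 in gox2 Cd 24 h. It read 12.91, 13.10 and 13.13 in 35S::GOX2 control, 12.95, 12.23 and 13.04 in 35S::GOX2 Cd 30 min, and 11.94, 12.09 and 11.89 in 35S::GOX2 Cd 24 h. The 6 highest arrays, at 12.91 or more, were the 3 of 35S::GOX2 control, replicates 1 and 3 of 35S::GOX2 Cd 30 min and replicate 3 of gox2 Cd 24 h. Replicate 2 of 35S::GOX2 Cd 30 min, which was high for CYP71A12, was low for CYP79B2.

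CYP79B3 read 13.82, 13.73 and 13.66 in WT control, 13.62, 13.66 and 13.58 in WT Cd 30 min, and 13.17, 13.20 and 13.15 in WT Cd 24 h. It read 13.33, 13.05 and 13.16 in gox2 control, 13.12, 13.25 and 13.19 in gox2 Cd 30 min, and 13.23, 13.06 and 13.74 in gox2 Cd 24 h. It read 13.74, 13.83 and 13.83 in 35S::GOX2 control, 13.74, 13.04 and 13.77 in 35S::GOX2 Cd 30 min, and 13.17, 12.88 and 13.12 in 35S::GOX2 Cd 24 h. Its arrays separated into 12 at 13.58 or above and 15 at 13.33 or below, and the 9 arrays with high CYP71A12 were all among the 15.

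CYP82C2, the hydroxylase of the 4-OH-ICN branch, varied as widely as the camalexin genes but with the entry enzymes. It read 9.32, 9.47 and 9.93 in WT control, 9.43, 9.15 and 9.16 in WT Cd 30 min, and 7.79, 8.52 and 8.38 in WT Cd 24 h. It read 8.20, 8.41 and 8.89 in gox2 control, 7.65, 7.73 and 7.53 in gox2 Cd 30 min, and 8.84, 8.94 and 10.56 in gox2 Cd 24 h. It read 10.81, 10.73 and 10.38 in 35S::GOX2 control, 10.28, 8.95 and 10.17 in 35S::GOX2 Cd 30 min, and 7.64, 8.68 and 8.09 in 35S::GOX2 Cd 24 h. The 3 arrays of 35S::GOX2 control were above every WT array, and those of gox2 Cd 30 min were below every WT array. CYP82C2 and its relative CYP82C4 have 2 protein-coding genes between them, CYP82C3 among them, so shared hybridization within this cluster was not tested either.

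AT1G26380, the oxidase of the same branch, followed the camalexin genes more loosely (r = 0.88 with CYP71A12). It read 10.18, 10.60 and 10.20 in WT control, 10.44, 10.39 and 10.24 in WT Cd 30 min, and 12.07, 11.99 and 12.09 in WT Cd 24 h. It read 10.37, 11.37 and 11.10 in gox2 control, 11.77, 11.45 and 11.62 in gox2 Cd 30 min, and 11.27, 12.21 and 11.18 in gox2 Cd 24 h. It read 11.06, 10.85 and 10.88 in 35S::GOX2 control, 11.17, 12.24 and 11.01 in 35S::GOX2 Cd 30 min, and 10.37, 12.07 and 10.50 in 35S::GOX2 Cd 24 h. The 9 arrays with high CYP71A12 were again the 9 highest, from 11.45, but the next array, replicate 2 of gox2 control at 11.37, followed without a gap.

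Its relative AT1G26410 read 7.81, 8.15 and 7.76 in WT control, 7.12, 7.88 and 7.78 in WT Cd 30 min, and 9.36, 9.33 and 9.42 in WT Cd 24 h. It read 7.83, 8.05 and 8.0 in gox2 control, 8.91, 8.88 and 9.08 in gox2 Cd 30 min, and 8.13, 9.74 and 7.57 in gox2 Cd 24 h. It read 7.62, 7.52 and 7.48 in 35S::GOX2 control, 7.60, 9.68 and 7.39 in 35S::GOX2 Cd 30 min, and 7.90, 9.71 and 8.0 in 35S::GOX2 Cd 24 h. The 9 arrays named for CYP71A12 were at 8.88 or above and the other 18 at 8.15 or below. AT1G26380 and AT1G26410 have 2 protein-coding genes between them, both of the same family.

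**Figure D2:**
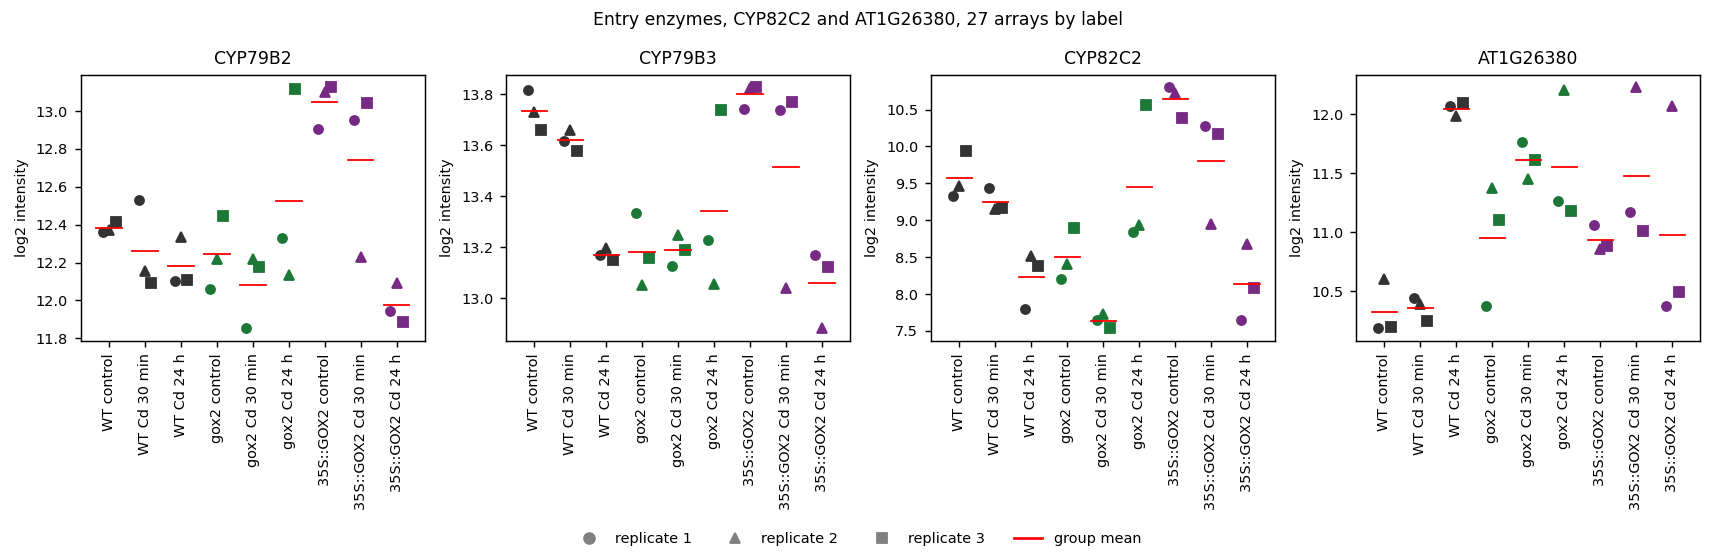
Log2 intensity of CYP79B2, CYP79B3, CYP82C2 and AT1G26380 on the 27 arrays by labelled group, with symbols for the replicate number and a red line for the group mean. CYP79B2, CYP79B3 and CYP82C2 are highest on average in 35S::GOX2 control, while AT1G26380 is highest on average in WT Cd 24 h.

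Whether Cd changed these genes in WT was asked first. After 24 h, the log2 fold changes against WT control were 2.94 ± 0.81 for CYP71A12, 2.30 ± 0.62 for CYP71A13 and 1.61 ± 0.48 for PAD3. They were 1.72 ± 0.37 for AT1G26380 and 1.46 ± 0.52 for AT1G26410, so that these genes rose 2.75-fold to 7.66-fold. Each group had 3 arrays, and the SE, here and below, pools the spread of all 9 groups. From the arrays of these WT groups alone, the SE of CYP71A12 was 0.20. CYP82C2 stood at -1.34 ± 0.38 and CYP79B3 at -0.56 ± 0.16. By limma with Benjamini-Hochberg adjustment over all features, CYP71A13 (adjusted p = 0.0469) and AT1G26380 (adjusted p = 0.0213) rose, 2 of the 9 genes against 3.22% of all features (1.5% higher). CYP71A12, CYP79B3, CYP82C2, PAD3 and AT1G26410 had adjusted p = 0.0512, 0.0524, 0.056, 0.0653 and 0.113. For 8 of the 9 genes, 5 higher and 3 lower, no array of one group reached into the range of the other, as for 38.9% of all features. The median log2 fold change was 1.46 over the 9 genes and -0.01 over all features.

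The call of that comparison depended on the spread shared with the other groups. Fitted on the 6 arrays of WT control and WT Cd 24 h alone, 7 of the 9 genes passed, against 18.9% of all features, with adjusted p = 0.000295 for CYP71A12, 0.000113 for PAD3 and 0.000414 for AT1G26410, while CYP79B3 (adjusted p = 0.00183) and CYP82C2 (adjusted p = 0.00947) passed as lower. Without any 1 of these 6 arrays in the fit of all groups, none of the 9 genes passed. Both groups lay on the same slide.

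After 30 min of Cd in WT none of the 9 genes passed limma's threshold, against 15% of all features, and none had an unadjusted p under 0.05 or passed the methods' t-test after adjustment. Log2 fold changes ran from -0.33 ± 0.38 for CYP82C2 to 0.37 ± 0.62 for CYP71A13. The arrays of CYP71A13 and PAD3 did not overlap between the groups, with all 3 Cd arrays higher, and those of GGP1 did not overlap in the other direction; 42.4% of all features were separated in this way. These 2 groups lay on different slides and cannot be told apart from them.

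On arrays labelled gox2, 3 of the 4 genes of the camalexin branch were higher after 30 min of Cd than in control. CYP71A12 rose by 2.32 ± 0.81 (adjusted p = 0.0383), CYP71A13 by 2.19 ± 0.62 (adjusted p = 0.0125) and PAD3 by 1.42 ± 0.48 (adjusted p = 0.0322) on the log2 scale in limma's test. These were 3 of 9 genes, a share near the 27.7% of all features that passed in either direction and above the 15.3% that were higher. GGP1, the fourth of the branch, stood at -0.09 ± 0.09, AT1G26410 at 1.0 ± 0.52, AT1G26380 at 0.66 ± 0.37 and CYP82C2 at -0.86 ± 0.38, which did not pass. Fitted by limma on the arrays of these groups alone, AT1G26410 (adjusted p = 0.00186) and CYP82C2 (adjusted p = 0.0172, lower) also passed, against 24.5% of all features. The SE of CYP71A12 was 0.14 in that fit. The slides of the groups differed, and none of the 9 genes passed when slide was a random block. Without replicate 3 of gox2 control none passed either, without its replicate 1 there were 2 calls, and without any other array of the groups there was 1. The mean of the root markers was between -0.24 and -0.12 in gox2 control and between -0.02 and 0.01 in gox2 Cd 30 min, but its members went both ways: RHD6, SHV2, LRX1 and MYB36 rose (4 of 12), while TIP2;3 averaged 11.77 and 10.37 and CASP2 11.84 and 11.21, which did not pass. Their part was not tested.

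After 24 h of Cd on arrays labelled gox2, none of the 9 genes passed limma's threshold against control, where 0.0135% of all features did. Of the 9, 1 had an unadjusted p under 0.05, and none passed the methods' t-test after adjustment. CYP71A12 had a log2 fold change of 0.98 ± 0.81, an SE that the fit pools over all 9 groups, and its 3 arrays at 24 h read 10.41, 13.44 and 10.32. With slide as a fixed block, the estimate rests on replicate 3 of gox2 Cd 24 h, the only one on the slide of gox2 control. This estimate was 0.87 for CYP79B2 and 2.06 for CYP82C2. That array read 13.12 and 10.56, while replicates 1 and 2 read 12.33 and 12.14 for CYP79B2, and 8.84 and 8.94 for CYP82C2. Replicate 3 was closest to replicate 3 of 35S::GOX2 Cd 30 min.

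On arrays labelled 35S::GOX2, 4 of the 9 genes were lower after 24 h of Cd than in control. That share was close to the share of all features passing in either direction, and above the share that were lower. CYP82C2 fell by 2.50 ± 0.38 on the log2 scale (adjusted p = 7.35e-05), or 5.67-fold. CYP79B2 fell by 1.07 ± 0.21 (adjusted p = 0.0005), CYP79B3 by 0.74 ± 0.16 (adjusted p = 0.00097) and GGP1 by 0.37 ± 0.09 (adjusted p = 0.00354). In limma's test 43.9% of all features passed (20.2% lower). All 3 arrays at 24 h were below all 3 control arrays for each of the 4, as for 25.2% of all features. Leaving out any array of the 2 groups left 4 of the 9 genes called. The groups lay on different slides, a difference that leaving out arrays cannot address, and a fixed slide term could not be fitted. GOX2 averaged 9.68 in this control, against its label, and 14.21 at 24 h. Root markers also fell here (5 of 12, list median -0.79), and their part was not tested.

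In the same comparison CYP71A12 (1.11 ± 0.81), AT1G26410 (1.0 ± 0.52), CYP71A13 (0.50 ± 0.62) and PAD3 (0.41 ± 0.48) did not pass, with 1 of 3 arrays high at 24 h. After 30 min none of the 9 genes passed against 35S::GOX2 control (23% of all features did), 1 had an unadjusted p under 0.05 and none passed the methods' t-test. Between the exposures, which shared a slide, CYP79B2 fell by 0.77 ± 0.21, GGP1 by 0.35 ± 0.09 and CYP82C2 by 1.66 ± 0.38 from 30 min to 24 h (adjusted p = 0.0437, 0.0426 and 0.0325 in limma), 3 of 9 against 4.54% of all features (2.63% lower). That count was 0 without replicate 1 or replicate 3 of either group and 4 without replicate 2 of either.

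Without Cd, 2 of the 9 genes passed in each line against WT. That share was not above that of all features passing in either direction and, for gox2, near it. On arrays labelled 35S::GOX2, CYP79B2 was higher by 0.66 ± 0.21 (adjusted p = 0.0168) and CYP82C2 by 1.07 ± 0.38 (adjusted p = 0.0327), 2 of 9 against 38.3% of all features (16.2% higher) in limma's test. On arrays labelled gox2, CYP79B3 was lower by 0.55 ± 0.16 (log2 fold change -0.55, adjusted p = 0.0137) and CYP82C2 lower (-1.08 ± 0.38, adjusted p = 0.0419), 2 of 9 against 26.9% (14.8% lower). The camalexin genes CYP71A12, CYP71A13 and PAD3 stood between -0.06 and 0.17 in gox2 and between 0.15 and 0.40 in 35S::GOX2, with adjusted p = 0.642 or more. The gox2 call for CYP82C2 was lost with slide as a random block (adjusted p = 0.0824). No gene passed without replicate 2 of gox2 control, or without replicate 2 of 35S::GOX2 control in the other comparison. Leaving out any other array of the groups left 1 call, except replicate 3 of gox2 control in the first and replicate 3 of WT control in the second, which left 2.

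After 30 min of Cd, arrays labelled gox2 were above those labelled WT for AT1G26380 (1.25 ± 0.37, adjusted p = 0.042) and below them for CYP82C2 (-1.61 ± 0.38, adjusted p = 0.0185), in limma's test. Of all features 7.67% passed, 3.67% higher and 4% lower. CYP71A12, CYP71A13, AT1G26410 and PAD3 stood at 2.52 ± 0.81, 1.76 ± 0.62, 1.36 ± 0.52 and 1.15 ± 0.48 (adjusted p = 0.0597 to 0.134), and all 3 gox2 arrays were above all 3 WT arrays for each, as for 22.3% of all features. In the fit of these 6 arrays alone 7 of the 9 genes passed, against 17.6% of all features, and with slide as a random block none did. None passed without replicate 1 or 2 of either group, and 1 passed without either replicate 3. GOX2 was low under both labels here.

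On arrays labelled 35S::GOX2, GGP1 (0.34 ± 0.09, adjusted p = 0.0167) and AT1G26380 (1.12 ± 0.37, adjusted p = 0.0414) were higher than in WT at 30 min by limma, 2 of 9 against 16.9% of all features (8.11% higher). Without replicate 2 of 35S::GOX2, AT1G26380 no longer passed, whereas CYP79B2 (0.74 ± 0.20, adjusted p = 0.0148) did. With slide as a fixed or a random block none passed, nor without replicate 1 of either group. Leaving out replicate 3 of either group or replicate 2 of WT left 1 call.

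**Figure D3:**
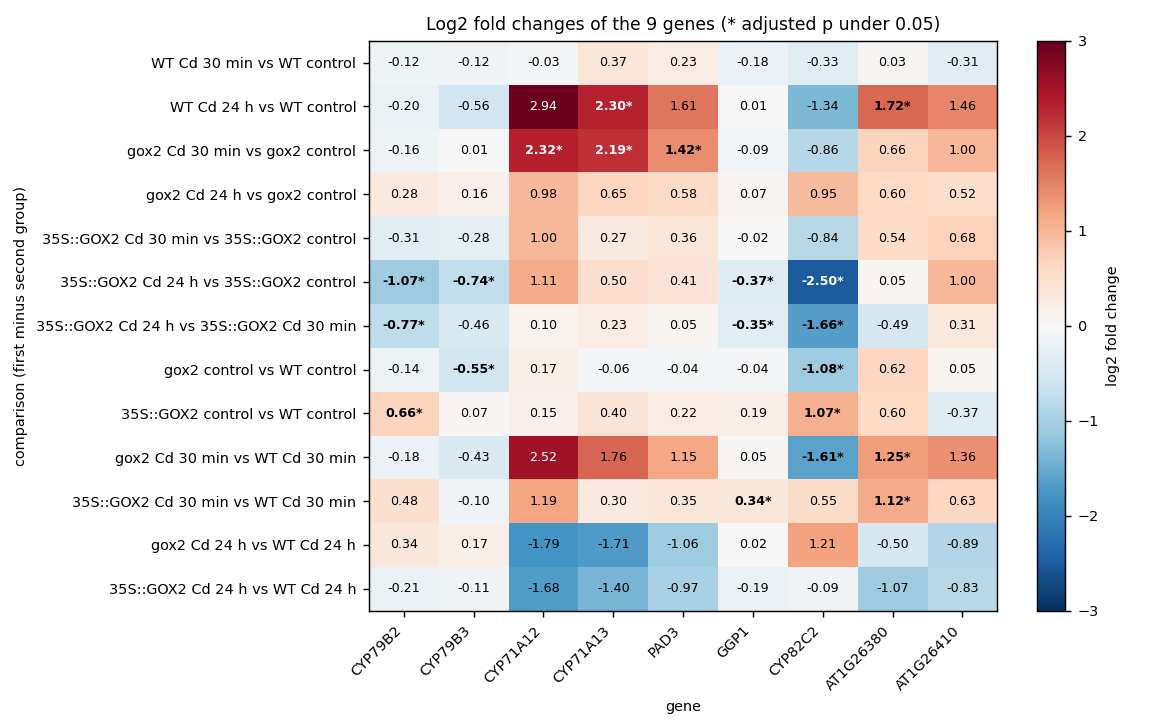
Log2 fold changes of the 9 genes (columns) in the 13 comparisons between groups (rows), as the mean of the first group minus that of the second, with an asterisk where limma's adjusted p was under 0.05. The largest positive value is 2.94 for CYP71A12 in WT after 24 h of Cd, and the largest negative value is -2.50 for CYP82C2 in 35S::GOX2 after 24 h.

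The lines were last compared with WT after 24 h of Cd, and here the calls changed when 1 array in each line was left out. With all arrays, none of the 9 genes passed for gox2 (2.14% of all features did; 4 of the 9 had an unadjusted p under 0.05) or for 35S::GOX2 (14.6%; 2 of the 9), and none passed the methods' t-test after adjustment. The log2 fold changes of CYP71A12 were -1.79 ± 0.81 for gox2 and -1.68 ± 0.81 for 35S::GOX2. All 3 gox2 arrays at 24 h, and replicate 2 of 35S::GOX2, were closest to an array with a different label. Replicate 2 of gox2 Cd 24 h was closest to replicate 2 of 35S::GOX2 Cd 30 min (r = 0.79). Replicate 2 of 35S::GOX2 at 30 min and replicate 2 at 24 h were closest to each other (r = 0.80). Leaving out replicate 2 of gox2 Cd 24 h gave -2.82 ± 0.77 for CYP71A12 (adjusted p = 0.0239), -2.54 ± 0.57 for CYP71A13 (adjusted p = 0.0102), -1.70 ± 0.45 for PAD3 (adjusted p = 0.0199) and 1.47 ± 0.42 for CYP82C2 (adjusted p = 0.0276), against 13% of all features. Leaving out replicate 2 of 35S::GOX2 Cd 24 h gave -2.71 ± 0.77 for CYP71A12 (adjusted p = 0.018), -2.11 ± 0.62 for CYP71A13, -1.57 ± 0.46 for PAD3 and -1.61 ± 0.32 for AT1G26380 (adjusted p = 0.00148), against 19.3%. Leaving out replicate 1 or replicate 3 of either line, or any WT array, gave no call. Replicate 2 was singled out after its values were seen. As it was the only high array of each line for CYP71A12, CYP71A13 and PAD3, lower means without it follow from that choice. For CYP71A12, 2 of the 3 arrays of each line read between 10.32 and 10.52, within the range of WT control, and the third read 13.44 or 13.56, above WT Cd 24 h.

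**Figure D4:**
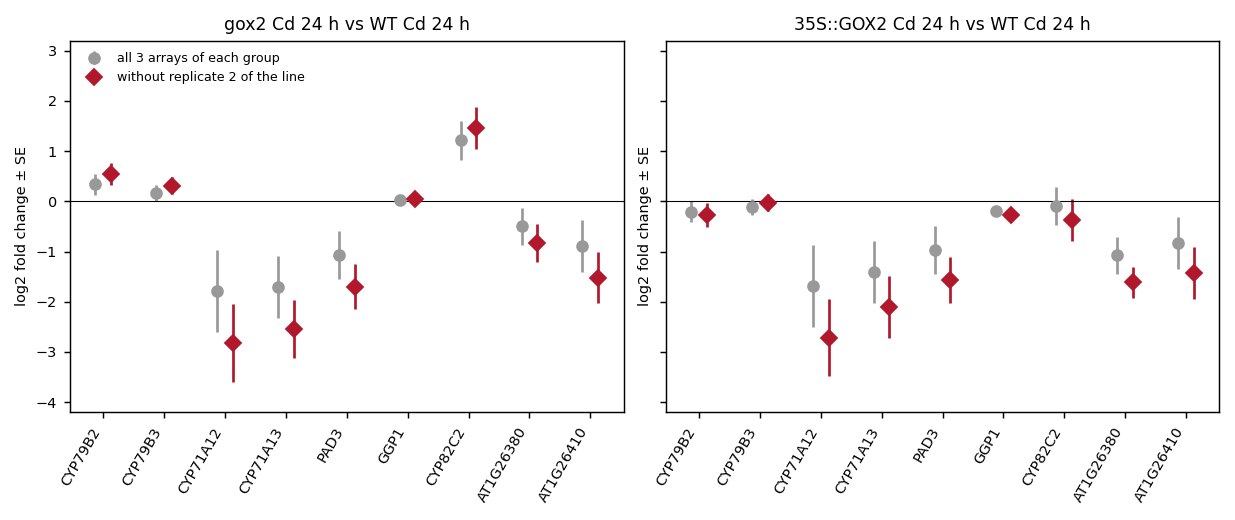
Log2 fold change ± SE of the 9 genes between each line and WT after 24 h of Cd, with all 3 arrays per group (grey circles) and without replicate 2 of the line (red diamonds). CYP71A12 moves from -1.79 to -2.82 in gox2 and from -1.68 to -2.71 in 35S::GOX2 when that array is left out, and GGP1 stays near 0.

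The difference between the Cd responses of a line and of WT was tested as an interaction term. For 35S::GOX2 at 24 h it passed limma's threshold for AT1G26380 (-1.68 ± 0.52, adjusted p = 0.0218), CYP79B2 (-0.87 ± 0.30, adjusted p = 0.0338) and GGP1 (-0.38 ± 0.13, adjusted p = 0.0392), 3 of 9 against 27.5% of all features (12.7% lower). AT1G26380 went from 10.93 to 10.98 on arrays labelled 35S::GOX2 and from 10.33 to 12.05 in WT. CYP79B2 went from 13.05 to 11.97 on 35S::GOX2 arrays and from 12.38 to 12.18 in WT. Without replicate 2 of 35S::GOX2 Cd 24 h the count was 6 of 9, with CYP71A12 (-2.86), CYP71A13 (-2.50) and PAD3 (-1.79) added, against 34.2% of all features. Without replicate 1 or replicate 3 of that group it was 0. None of the 9 genes passed for gox2 at 30 min (27% of all features did; none of the 9 had an unadjusted p under 0.05), gox2 at 24 h (0.0162%; 3 of the 9) or 35S::GOX2 at 30 min (29.7%; none of the 9).

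The pathway's neighbours were counted in lists of tryptophan synthesis, indole glucosinolates, other camalexin enzymes with glutathione supply and export, regulators, and relatives. At 24 h of Cd on arrays labelled 35S::GOX2, 9 of the 15 glucosinolate genes fell against control and none rose, beside the 20.2% of all features that were lower, with a list median of -0.31 beside 0.04 over all features. They included CYP81F2 (-1.72), which hydroxylates the indole ring, and the methyltransferases IGMT5 (-1.32), IGMT1 (-0.84) and IGMT2 (-0.84). Of 10 regulators 5 fell and 1 rose: the kinase MPK3 by 1.01, WRKY33, the transcription factor that binds the CYP71A13 and PAD3 promoters, by 0.83, CPK6 by 0.44 and MYB51 by 0.34 were the largest falls, and MPK6 rose by 0.20. PAD3 did not pass there, reading 11.65, 13.48 and 11.74 on the arrays at 24 h, and its relation to WRKY33 was not tested. Of 9 tryptophan genes 1 rose and 2 fell, and of 7 genes of other camalexin enzymes, glutathione supply and export 1, GSH1, rose. CYP82C3, next to CYP82C2, fell by 3.28, and CYP82C4, which hydroxylates coumarins under iron deficiency, fell by 3.62.

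Between arrays labelled 35S::GOX2 and WT without Cd, 5 of 15 glucosinolate genes were higher, beside 16.2% of all features, led by CYP81F2 (1.46) and IGMT2 (0.67), with a median of 0.17 beside -0.07 over all features. Of 10 regulators 4 were higher and 1 lower, with NAC042 at 0.94, MPK3 at 0.68, WRKY33 at 0.60 and CPK6 at 0.36, and MPK6 at -0.19. CYP82C3 was higher by 1.91. This comparison shares its 35S::GOX2 control arrays with the one after 24 h of Cd.

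These lists were also counted where camalexin genes passed as higher, and lastly in a comparison where CYP71A12, CYP71A13 and PAD3 did not pass. After 24 h of Cd in WT no tryptophan gene (of 9) and no glucosinolate gene (of 15) passed, while CYP71A18, a relative of CYP71A13, rose by 2.83, ERF1 by 0.95 and AT1G26420, a relative of AT1G26380, by 1.47, and CYP82C4 fell by 3.86, where 3.22% of all features passed. On arrays labelled gox2 after 30 min, CYP71A18 rose by 2.21 and ERF1 by 0.87. There the tryptophan gene ASA1, a subunit of anthranilate synthase, rose by 0.55 and TRP1 by 0.25, PAI1 fell by 0.28, and 3 of 15 glucosinolate genes rose: UGT74B1 by 0.62, SOT16 by 0.53 and CYP83B1 by 0.34, beside 27.7% of all features called and 15.3% higher. Between 35S::GOX2 and WT at 30 min of Cd, 5 of 10 regulators were higher, beside 8.11% of all features. WRKY33 stood at 0.81, ERF1 at 0.74, MPK3 at 0.69 and MYB122 at 0.63. CYP71A12, CYP71A13 and PAD3 were high there only on replicate 2 of 35S::GOX2, and the groups lay on different slides.

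Several of these genes also varied with markers of roots, an organ that the leaf label does not name. Of the 12 root markers 10 had a mean above the median of all features, and of 8 leaf markers 7 did. The mean of the root markers, relative to each gene's mean, ranged from 0.38 to 0.55 in WT control, from 0.27 to 0.34 in WT Cd 30 min and from -0.28 to -0.18 in WT Cd 24 h. It ranged from -0.24 to -0.12 in gox2 control, from -0.02 to 0.01 in gox2 Cd 30 min and from -0.76 to 0.46 in gox2 Cd 24 h. It ranged from 0.22 to 0.27 in 35S::GOX2 control, from -0.73 to 0.48 at 30 min of Cd and from -0.91 to -0.25 at 24 h. Replicate 2 was the lowest array in each of the 3 widest groups. No marker read as 0, since the files hold intensities only.

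Over the 27 arrays the root marker mean correlated with CYP79B3 at r = 0.89, with CYP79B2 and CYP82C2 at 0.58, with CYP71A12 at -0.69 and with PAD3 at -0.64, as descriptions over arrays that share labels and slides. The mean of the leaf markers, which ranged only from -0.15 to 0.09, correlated with CYP71A12 at -0.87. The leaf markers moved unequally. Group means of LHB1B1 ran from 14.48 to 15.02, those of CAB2 from 8.83 to 9.26 and those of RBCS1A only from 15.67 to 15.73. Whether features as bright as RBCS1A, RCA or CAB3 can show a change was not tested. In bulk RNA, fewer cells of a type and less RNA per cell cannot be told apart, and the part of the root share in the differences of the 9 genes was not tested. Single markers differed from their mean: in gox2 control, gox2 Cd 30 min and WT Cd 24 h, TIP2;3 averaged 11.77, 10.37 and 9.32, CASP2 11.84, 11.21 and 10.34, and RHD6 7.45, 8.55 and 8.61. The r of each of the 9 genes with GOX2 lay between -0.36 and 0.21.

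**Figure D5:**
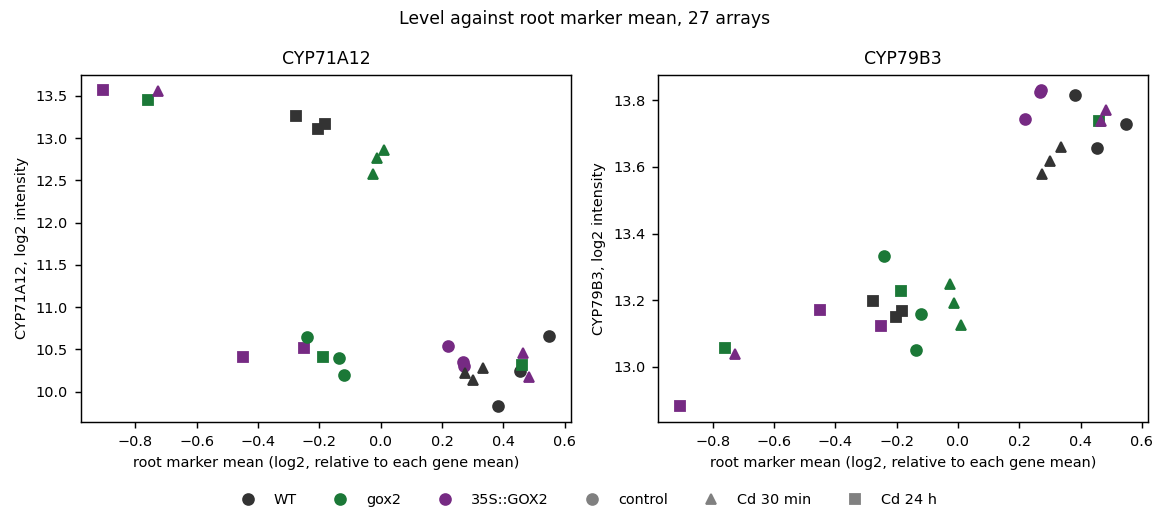
Log2 intensity of CYP71A12 and of CYP79B3 against the mean of 12 root markers (log2 units, centred on the mean of each gene) on the 27 arrays, colored by labelled genotype and with symbols for treatment. CYP79B3 rises with the marker mean (r = 0.89), while CYP71A12 takes 2 separate levels, of which the upper one is found only at marker means of 0.01 or less. The lower level is found there too, as on all gox2 control arrays (-0.24 to -0.12).

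The loci outside the set with the most similar profile over the 27 arrays were named for each gene. They were GLIP1 (r = 0.990) for CYP71A12, CYP71A18 (0.978) and ABCG40 (0.975) for CYP71A13, and AT5G39110 (0.983), ABCG40 (0.981) and CYP71A18 (0.981) for PAD3. For AT1G26410 the closest was BGLU27 (0.980), and for AT1G26380 GLR2.7 (0.963). CYP79B3 was closest to CYP83A1 (0.973), CYP79B2 to AT2G28080 (0.950), CYP82C2 to CYP82C3 (0.934) and GGP1 to RABA4C (0.902). These r values compare profiles over arrays that share labels, slides and root marker levels.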

How the data were processed

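The deposited value of each of 37118 features is a linear intensity that the authors obtained by RMA (background correction, normalization and a summary over probe pairs). Software version and genome build are not given in the sources used here, and the submitters' processing notes list limma with no role. Its log2 was quantile-normalized between arrays, and the means of the 9 labelled groups were estimated together by limma 3.58.1 under R 4.3.3 (two-sided moderated tests, Benjamini-Hochberg over all features, adjusted p under 0.05), with jsonlite 2.0.0 for the labels and Python 3.11.15, pandas 2.3.3 and matplotlib 3.10.9 for plots. There were 13 comparisons and 4 interaction terms. The code was tested on simulated data. The genes named are the 9 members, up to 4 called loci of each of 5 pathway lists, the 3 most similar loci of each member (fewer are printed) and GOX2. Members and lists were chosen with earlier results of these data known. Where a locus had several features, the brightest on average stood for it. No feature was filtered out. Alternatives were the values as deposited, the series table, a filter on the dimmest 25% of features, the mean over a locus, replicate number or slide as a block, only the groups compared, a minimum log2 fold change of 1, the methods' t-test, and leaving out arrays. Replicate numbers were checked for pairing by the correlation of same-numbered deviations, which ranged from -0.53 to 0.51 and was over 0.1 for every number in 1 of 13 comparisons, 35S::GOX2 at 24 h against 30 min.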

Additional observations from a re-analysis of the deposited data

Results flagged for a closer look

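For 3 of the 9 genes the response to 24 h of Cd differed between arrays labelled 35S::GOX2 and WT by limma's test of the difference itself. The difference, as the 35S::GOX2 response minus the WT response on the log2 scale, was -0.87 for CYP79B2 (adjusted p = 0.0338), -0.38 for GGP1 (adjusted p = 0.0392) and -1.68 for AT1G26380 (adjusted p = 0.0218). Of all features 27.5% passed the same test in either direction, a share near 3 of 9, and 12.7% passed as lower. None of the 9 genes passed without replicate 1 or replicate 3 of 35S::GOX2 Cd 24 h. AT1G26380 read 10.37, 12.07 and 10.50 on the 35S::GOX2 arrays at 24 h, so replicate 2 alone read as in WT Cd 24 h. GOX2 went against the label in 35S::GOX2 control (mean 9.68), and those arrays lay on a different slide from those of 35S::GOX2 Cd 24 h. The part of the slide was not tested by a fixed term, which could not be fitted for this difference. With slide as a random block 1 of the 3 genes passed.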

How the results depend on the processing

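The count of the 9 genes called depended on the setting in most comparisons, and the cause was not tested. For WT Cd 24 h against control (2 genes) it was 1 with the values as deposited, 5 without the dimmest 25% of features, 6 with a replicate block, 5 with slide as a random or fixed block, 7 with only the groups compared and 6 by t-test. For gox2 Cd 30 min against control (3 genes) it was 0 with random slide and 5 with only the groups compared. For gox2 Cd 24 h against control (0 genes) the fixed slide used 1 Cd array alone, so no count is given. For 35S::GOX2 Cd 24 h against control (4 genes) it was 2 with a log2 fold change of at least 1. For 35S::GOX2 Cd 24 h against 30 min (3 genes) it was 0 with only the groups compared, 0 by t-test and 1 with the minimum fold change. For gox2 control against WT (2 genes) it was 1 with random slide, the minimum fold change or the t-test. For 35S::GOX2 control against WT (2 genes) it was 1 as deposited, 1 with the minimum fold change, 5 with only the groups compared and 4 by t-test. Against WT Cd 30 min, gox2 (2 genes) gave 0 with random slide and 7 with only the groups compared or by t-test, and 35S::GOX2 (2 genes) gave 0 with random or fixed slide, only the groups compared or the t-test and 1 with the minimum fold change. 35S::GOX2 against WT at 24 h (0 genes) gave 1 as deposited, with the dim filter or with the replicate block. Among the differences of responses, gox2 at 30 min gave 4 with only the groups compared, and 35S::GOX2 at 30 min gave 2 with fixed slide. That slide term rests on the gox2 Cd 24 h arrays, the only group on more than 1 slide. For gox2 at 24 h the fixed slide again used 1 Cd array of the line, so no count is given. 35S::GOX2 at 24 h (3 genes) gave 1 with random slide or the minimum fold change. The series table and the mean over a locus left every count within 1.5 times. The fixed slide could not be fitted for the other comparisons.

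The replicate block moved the count in 3 comparisons, to 6 and 1 as given above and to 3 for gox2 against WT at 30 min of Cd (2 without it). In 35S::GOX2 Cd 24 h against 30 min, where the numbers paired the arrays by correlation, it left the count at 3, with the same 3 genes.

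Leaving out 1 array at a time gave 0 genes for WT Cd 24 h against control, 0 to 2 for gox2 Cd 30 min against control, 4 for 35S::GOX2 Cd 24 h against control, 0 to 4 for 35S::GOX2 Cd 24 h against 30 min, and 0 to 2 for each line's control against WT. It gave 0 to 1 for gox2 and 0 to 2 for 35S::GOX2 against WT at 30 min, 0 to 4 for each line against WT at 24 h, and, for the differences of responses at 24 h, 0 to 1 for gox2 (1 without its replicate 1 at 24 h) and 0 to 6 for 35S::GOX2. In the other 5 it stayed at 0.

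In a setting chosen after seeing the data, the 8 arrays closest to another label were left out, which removes 2 gox2 groups whole. The counts were then 1 for 35S::GOX2 Cd 30 min and unchanged at 4 for Cd 24 h against control, 5 between the exposures, 5 and 6 against WT at 30 min and 24 h, and 3 and 8 for the differences of responses. PAD3 turned to -0.26 for 35S::GOX2 Cd 30 min against control, -0.27 against WT and -0.49 for the difference of responses, all past the threshold, where all arrays gave 0.36, 0.35 and 0.13. AT1G26380 turned to -0.50 for 35S::GOX2 Cd 24 h against control (0.05 with all arrays). With 3 arrays per group and no detection values, levels near background cannot be recognized.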
